A study of Mus musculus with 2 samples.

Results

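Homeobox genes outside the Hox clusters encode transcription factors that mark regions and cell groups of the developing brain. The set described here holds 53 of them, of 43346 Ensembl genes in the deposited tables, chosen by symbol: the LIM homeobox genes with Isl1 and Isl2, the genes Six3 and Six6, and the Irx, Nkx, Dlx, POU, Meis, Pbx and Zfhx families. Another 11 genes, among them Otp, Vax1, Rax, Bsx, Pax6 and Emx2, completed it. The rule uses symbols and no measured value, but the members were chosen with earlier results of these data known. All 53 had a row in both tables, and none was at 0 counts.

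The data are total RNA-seq of P0 midbrain from mice of strain B6NCrl, all in 1 group for which the labels give no treatment, transgene or mutation. There were 2 libraries, each from the single midbrain of 1 pup, called pup 3 (replicate 2) and pup 1 (replicate 1) after the labels. Each had 10 ng of RNA as input. Their summed expected counts, the estimated reads assigned to features, were 40769103 in pup 3 and 36934868 in pup 1. The labels give the pups a common donor identifier and no sex. The X-linked noncoding gene Xist had 10433.7 counts in pup 3, against 2.26 in pup 1, and the Y-linked Ddx3y had 0 counts in pup 3, against 2618 in pup 1. Of 8 midbrain markers, 7 reached 1 TPM in both pups, so the labelled tissue was represented by its markers. Without a second condition, the comparisons below are between members and between the pups, and each pup is a single library.

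A homeodomain binds short AT-rich DNA sites, and many of these proteins act with partners. Meis and Pbx proteins are TALE homeodomain cofactors that bind DNA together with other homeodomain proteins, and LIM homeodomain proteins assemble through Ldb cofactors. In the embryonic brain, Dlx genes mark forebrain domains that make GABAergic neurons, Nkx2-1, Six3, Six6, Otp, Rax, Vax1, Bsx, Hmx2 and Hmx3 are used in the hypothalamus or the structures next to it, and Irx, Lhx1, Lhx5 and Lhx9 take part in patterning and neuron types behind the forebrain as well. In bulk tissue, fewer cells of a type and less RNA per cell cannot be told apart.

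The promoters of 3 genes are shown because these genes were among those with the widest gap between the pups. Each line gives the bases just upstream of the RefSeq start in GRCm38.p6, 5′ to 3′ on the gene's strand, cut where an annotated exon begins, with CG dinucleotides in capitals. Dlx2 is at chr2:71546755-71547004 on the minus strand, Isl1 at chr13:116309690-116309938 on the minus strand, and Otp at chr13:94875386-94875601 on the plus strand.
Dlx2: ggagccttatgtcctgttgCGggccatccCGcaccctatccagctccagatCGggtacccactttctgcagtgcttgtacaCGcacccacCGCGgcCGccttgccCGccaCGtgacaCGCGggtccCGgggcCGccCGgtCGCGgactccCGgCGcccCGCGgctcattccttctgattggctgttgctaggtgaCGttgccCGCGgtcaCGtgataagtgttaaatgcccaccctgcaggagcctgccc
Isl1: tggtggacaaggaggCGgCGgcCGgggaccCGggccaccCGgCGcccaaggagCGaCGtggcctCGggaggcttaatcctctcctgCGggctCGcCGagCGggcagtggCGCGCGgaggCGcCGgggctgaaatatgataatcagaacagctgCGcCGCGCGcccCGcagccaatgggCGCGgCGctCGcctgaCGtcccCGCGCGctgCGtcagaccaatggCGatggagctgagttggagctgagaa
Otp: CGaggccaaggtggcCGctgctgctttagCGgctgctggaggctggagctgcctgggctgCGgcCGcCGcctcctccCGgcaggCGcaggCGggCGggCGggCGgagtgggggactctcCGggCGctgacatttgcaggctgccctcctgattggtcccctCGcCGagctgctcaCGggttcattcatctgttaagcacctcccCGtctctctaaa
These windows hold 24 CG in Dlx2, 33 in Isl1 and 18 in Otp. RefSeq gave 51 promoters for 43 of the members, with a median of 17 CG in the 250 bases before the start, against 6 over all 32851 promoters of the table. At least 10 CG were found in 84.3% of the members' promoters and in 37.8% of all. The core homeodomain motif TAAT, searched on both strands, was in 41.2% of the members' promoters and in 54.9% of all. The longer TAATTA, which is its own reverse complement and contains TAAT, was in 1.96% of the members' promoters, 1 promoter of Uncx, and in 4.84% of all. Median GC content was 64.8% in the members' promoters and 52.4% in all, and its part in the shares of these AT-only motifs was not tested. A match describes letters only and is no evidence of binding.

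Most of these genes were detected at birth. Both pups had 1 TPM or more for 41 of the 53 (77.4%). Among all 21474 protein-coding genes, 62.1% did so. The members' median level was 9.51 TPM in pup 3 and 8.79 TPM in pup 1, and over protein-coding genes it was 4.70 TPM in pup 3 and 4.52 TPM in pup 1. At 10 TPM or more in both pups were 20 members, and 10 stayed under 1 TPM in both. Levels are TPM, which is scaled by length, and an SD is over 2 pups throughout.

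**Figure D1:**
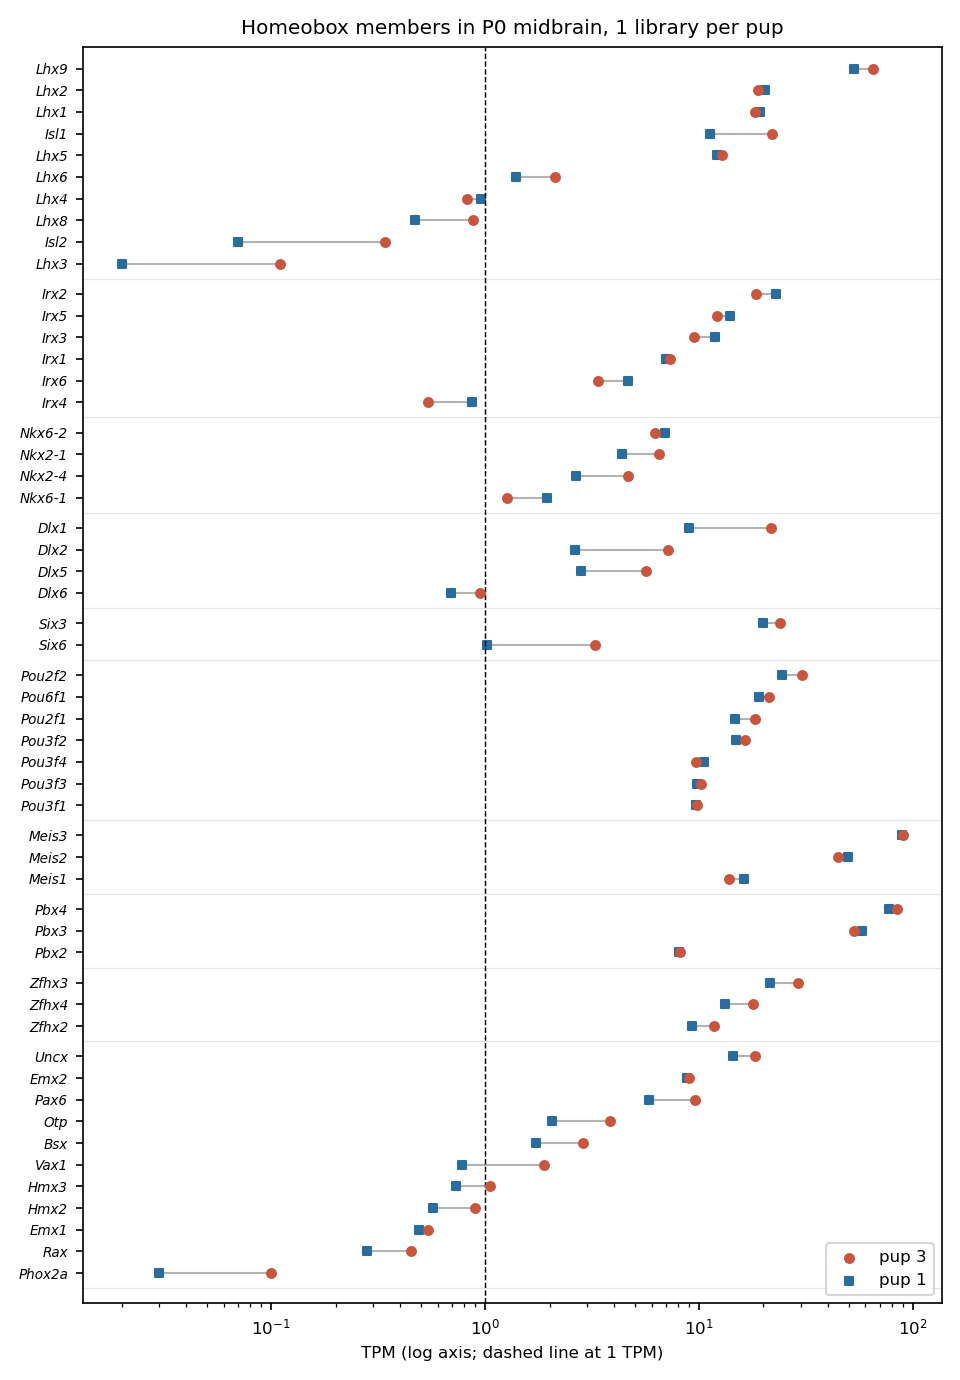
TPM of the 53 members on a log axis, with pup 3 and pup 1 as separate points and the members grouped by family. Meis3, Pbx4, Lhx9 and Pbx3 are at the high end, Lhx3 and Phox2a at the low end, and the gap between the pups is widest among members of middle and low level.

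TALE cofactors led the set. Meis3 (ENSMUSG00000041420) was highest, at 89.8 TPM in pup 3 and 89.4 TPM in pup 1 (mean 89.6 ± 0.311 SD, n = 2). Pbx4 followed at 83.9 TPM in pup 3 and 77.3 TPM in pup 1, and Pbx3 at 52.9 TPM in pup 3 and 58.1 TPM in pup 1. The place of Pbx4 depended on which transcripts are counted. Transcripts annotated as complete coding held 3.35% of its TPM in pup 3 and 2.96% in pup 1, or 2.55 ± 0.368 TPM (n = 2), and by that measure it had rank 36 among the members. Its leading transcript was a 375-nt incomplete model with 36.9% ± 2.63 of the gene's TPM. Meis3 had rank 1 also by the mean of its complete coding transcripts, at 56.4 ± 1.36 TPM. By this measure its order with Lhx9 changed between the pups. Meis3 had 55.5 TPM in pup 3 and 57.4 TPM in pup 1, and Lhx9 had 59.8 TPM in pup 3 and 47.5 TPM in pup 1. Meis2, a cofactor in midbrain and forebrain patterning, stood at 44.5 TPM in pup 3 and 49.7 TPM in pup 1. Meis1 was lower, at 13.9 TPM in pup 3 and 16.2 TPM in pup 1, and Pbx2 was at 8.18 TPM in pup 3 and 8.05 TPM in pup 1. The order within the Meis genes was the same in both pups.

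Pbx3 has a short and a long protein form annotated as complete. The shorter form of 351 amino acids carried 67.8% of the gene's TPM in pup 3 and 66.7% in pup 1, and the form of 434 amino acids carried 24.2% in pup 3 and 26.1% in pup 1. The short form was thus ahead in both pups. Meis2 was spread over more forms, and its assignment moved between the pups: the 394-amino-acid form held 23.3% in pup 3 and 2.50% in pup 1, while the 393-amino-acid form held 26.5% in pup 3 and 31.7% in pup 1. These forms differ by 1 residue in annotated length, and how well reads separate them was not tested.

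POU factors, many of them regulators of neural progenitors and neurons, averaged 9.78 TPM (Pou3f1) or more, and none was past 2-fold between the pups. Pou2f2 was at 30.3 TPM in pup 3 and 24.4 TPM in pup 1, and Pou2f1, a widely expressed octamer-binding factor, at 18.3 TPM in pup 3 and 14.8 TPM in pup 1. For Pou2f2 the leading model was an incomplete 609-nt transcript, and its complete coding transcripts came to 13.6 ± 1.64 TPM. Pou6f1, a POU gene of the nervous system, had 21.1 TPM in pup 3 and 19.1 TPM in pup 1. Among the class III genes of the neural tube, Pou3f2 (Brn2) led with 16.4 TPM in pup 3 and 14.8 TPM in pup 1. The others lay close together: Pou3f3 had 10.2 TPM in pup 3 and 9.79 TPM in pup 1, the X-linked Pou3f4 had 9.71 TPM in pup 3 and 10.6 TPM in pup 1, and Pou3f1 had 9.83 TPM in pup 3 and 9.73 TPM in pup 1. Pou3f3 and Pou3f4 changed places between the pups, so their order was not resolved.

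The Zfhx genes encode very large proteins with several zinc fingers and homeodomains. Zfhx3, a factor of neuronal differentiation, had 29.0 TPM in pup 3 and 21.5 TPM in pup 1, and its 10666 counts in pup 3 and 7402 in pup 1 were the most of any member. Zfhx4 was at 17.8 TPM in pup 3 and 13.2 TPM in pup 1, and Zfhx2 at 11.8 TPM in pup 3 and 9.27 TPM in pup 1. All 3 were higher in pup 3, by 0.34 to 0.43 on the log2 scale, which is short of 2-fold. Part of the Zfhx4 level rests on a short incomplete transcript of 524 nt, which took 34.5% ± 2.70 of its TPM but only 1.80% of its counts in pup 3 and 1.55% in pup 1.

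LIM homeobox genes were led by Lhx9 (ENSMUSG00000019230, chromosome 1, 138825186 to 138848577, minus strand, mm10), a gene of the dorsal midbrain and thalamus. It had 64.8 TPM in pup 3 and 52.9 TPM in pup 1 (mean 58.8 ± 8.48). Lhx1 and Lhx5, related factors that act in the specification of interneurons, were at 18.3 TPM in pup 3 and 19.3 TPM in pup 1 for Lhx1 and at 12.9 TPM in pup 3 and 12.2 TPM in pup 1 for Lhx5. Lhx2, a forebrain and eye factor also used in the thalamus, stood at 18.8 TPM in pup 3 and 20.3 TPM in pup 1. These 3 genes differed little between the pups. Lhx6, a factor of forebrain interneurons, was much lower, with 2.13 TPM in pup 3 and 1.40 TPM in pup 1, from 166 counts in pup 3 and 100 in pup 1. Isl1, which acts in motor, sensory and hypothalamic neurons, had 21.9 TPM in pup 3 and 11.2 TPM in pup 1. That gap was the widest of the LIM members with a mean count of 100 or more.

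Lhx9 and Isl1 each have annotated protein forms of different length. The 321-amino-acid form of Lhx9 carried 39.9% of its TPM in pup 3 and 43.5% in pup 1, and the 330-amino-acid form 24.9% in pup 3 and 17.3% in pup 1. The 388-amino-acid form carried 14.8% in pup 3 and 17.1% in pup 1, and the 397-amino-acid form 12.6% in pup 3 and 12.1% in pup 1. The shorter forms thus held the larger share of Lhx9 in each pup. For Isl1, the form of 349 amino acids held 56.4% in pup 3 and 48.5% in pup 1, against 29.4% in pup 3 and 23.2% in pup 1 for the 326-amino-acid form.

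Irx genes sit in clusters on chromosomes 13 and 8. Their products pattern neural and other tissues. Irx2 was highest, with 18.5 TPM in pup 3 and 23.0 TPM in pup 1, then Irx5 with 12.1 TPM in pup 3 and 13.9 TPM in pup 1. Irx3 had 9.51 TPM in pup 3 and 11.9 TPM in pup 1, and Irx1, its counterpart in the other cluster, had 7.33 TPM in pup 3 and 7.04 TPM in pup 1. Irx6 was at 3.38 TPM in pup 3 and 4.64 TPM in pup 1. Irx4, known from the heart ventricle, was lowest at 0.54 TPM in pup 3 and 0.87 TPM in pup 1. Neighbours within the clusters lay 298 to 665 kb apart, and each cluster held genes of high and low level. Against the direction of most members, 5 of 6 Irx genes were lower in pup 3, with a median difference of -0.32 (log2) and none past 2-fold. The lowest of these, Irx4, had only 31 counts in pup 3 and 47 in pup 1. The Irx2 difference of -0.31 came to -0.09 over its complete coding transcripts.

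Nkx2-1, a master factor of the ventral forebrain and hypothalamus, was at 6.47 TPM in pup 3 and 4.36 TPM in pup 1. Nkx2-4, its close relative, had 4.67 TPM in pup 3 and 2.66 TPM in pup 1. Of the Nkx6 genes, which pattern the ventral hindbrain and spinal cord and part of the midbrain, Nkx6-2 had 6.20 TPM in pup 3 and 6.93 TPM in pup 1, and Nkx6-1 had 1.27 TPM in pup 3 and 1.94 TPM in pup 1. The Nkx2 genes were higher in pup 3 and the Nkx6 genes lower, none of them past 2-fold. Nkx6-2 overlaps the opposite-strand gene Inpp5a, and the sources used here do not say if counting was stranded.

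Six3 (ENSMUSG00000038805), a factor of the anterior forebrain and eye, was the higher of its pair, at 23.9 TPM in pup 3 and 19.9 TPM in pup 1. Six6, used in the retina, hypothalamus and pituitary, had 3.27 TPM in pup 3 and 1.02 TPM in pup 1, from 323 counts in pup 3 and 92 in pup 1. The Six6 difference was the widest of the members tested. Six3os1, the noncoding gene on the strand opposite Six3, had 11.9 TPM in pup 3 and 9.84 TPM in pup 1.

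All 4 Dlx genes were higher in pup 3, with a summed 35.5 TPM against 15.1 TPM in pup 1. Dlx1 had 21.8 TPM in pup 3 and 8.97 TPM in pup 1, Dlx2 had 7.18 TPM in pup 3 and 2.64 TPM in pup 1, and Dlx5 had 5.64 TPM in pup 3 and 2.80 TPM in pup 1. Dlx6 was low, with 39 counts in pup 3 and 21 in pup 1. Dlx1 and Dlx2 are neighbours on chromosome 2, 9.43 kb apart, and Dlx5 and Dlx6 on chromosome 6 are 9.24 kb apart. Dlx1 was led by a retained-intron transcript with 29.6% ± 0.163 of its TPM, and its single complete coding form of 255 amino acids held 16.8% in pup 3 and 15.4% in pup 1. That form alone differed by 1.35 (log2), close to the 1.27 of the gene. Of the opposite-strand transcripts, Dlx1as had 39.1 counts in pup 3, against 18.9 in pup 1, Dlx6os1 had 145 in pup 3, against 39.9 in pup 1, and Dlx6os2 had 0 in pup 3, against 1 in pup 1.

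The remaining genes were led by Uncx, a factor of somites and neural domains, with 18.3 TPM in pup 3 and 14.5 TPM in pup 1. Emx2, a cortical and urogenital factor, followed with 8.97 TPM in pup 3 and 8.79 TPM in pup 1. Pax6, an eye and forebrain factor with a paired domain, had 9.61 TPM in pup 3 and 5.86 TPM in pup 1. Its 436-amino-acid form, which includes the alternative exon of the paired domain, carried 39.7% of TPM in pup 3 and 36.7% in pup 1, while the 422-amino-acid form carried 14.2% in pup 3 and 25.4% in pup 1. Otp, a factor of neuroendocrine hypothalamic neurons, was at 3.83 TPM in pup 3 and 2.05 TPM in pup 1. Bsx, which acts in hypothalamic feeding circuits, had 2.86 TPM in pup 3 and 1.73 TPM in pup 1, from 56 counts in pup 3 and 31 in pup 1. Vax1, a ventral forebrain factor, was at 1.89 TPM in pup 3 and 0.78 TPM in pup 1, from 45 counts in pup 3 and 17 in pup 1. The 4 genes of this group at the count limit (Uncx, Emx2, Pax6 and Otp) were all higher in pup 3, as were 54.8% of all genes tested, and the others had too few counts for a direction.

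The other 11 members averaged under 1 TPM. Phox2a, which defines noradrenergic and visceral motor neurons, and Lhx3, a motor neuron and pituitary factor, were lowest, Phox2a with 4 counts in pup 3 and 1 in pup 1 and Lhx3 with 5 counts in pup 3 and 1 in pup 1. The rest were Lhx4, Lhx8, Isl2, Irx4, Dlx6, Emx1, Rax, Hmx2 and Hmx3. The highest level of these 11 in either pup was that of Hmx3 in pup 3, at 1.05 TPM.

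The difference between the pups was read for the 39 members with a mean expected count of 100 or more, as log2 of TPM plus 0.1, pup 3 minus pup 1. A fold rule of 1 on this scale, a 2-fold change, was used in place of a test, since each pup has 1 library. In pup 3, 3 members were past it, which is 7.69% of 39. The same rule called 0.218% of all 13318 genes tested higher in pup 3. Because the members were chosen with earlier results of these data known, such shares are descriptive and not an independent test. The 3 members past the rule were Six6 at 1.59, Dlx2 at 1.41 and Dlx1 at 1.27. Six6 met the count limit only through pup 3, with 323 counts there and 92 in pup 1. With 100 counts required in each pup, 2 members were past the rule, Dlx2 and Dlx1. None of the 39 was lower past the rule, against 0.0976% of all genes. Just inside and just outside the threshold were Dlx1 at 1.27 and Dlx5 at 0.98, followed by Isl1 at 0.96.

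Counting error did not span a ratio of 1 for these genes. The exact 95% interval of the count ratio at equal depth, on the log2 scale, was 1.33 to 2.02 for Six6, 1.12 to 1.69 for Dlx2 and 1.14 to 1.47 for Dlx1. For Dlx5 it was 0.62 to 1.38 and for Isl1 0.93 to 1.26. Intervals of this kind cover counting error and not the spread among animals. Over its complete coding transcripts alone, Isl1 differed by 1.21.

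**Figure D2:**
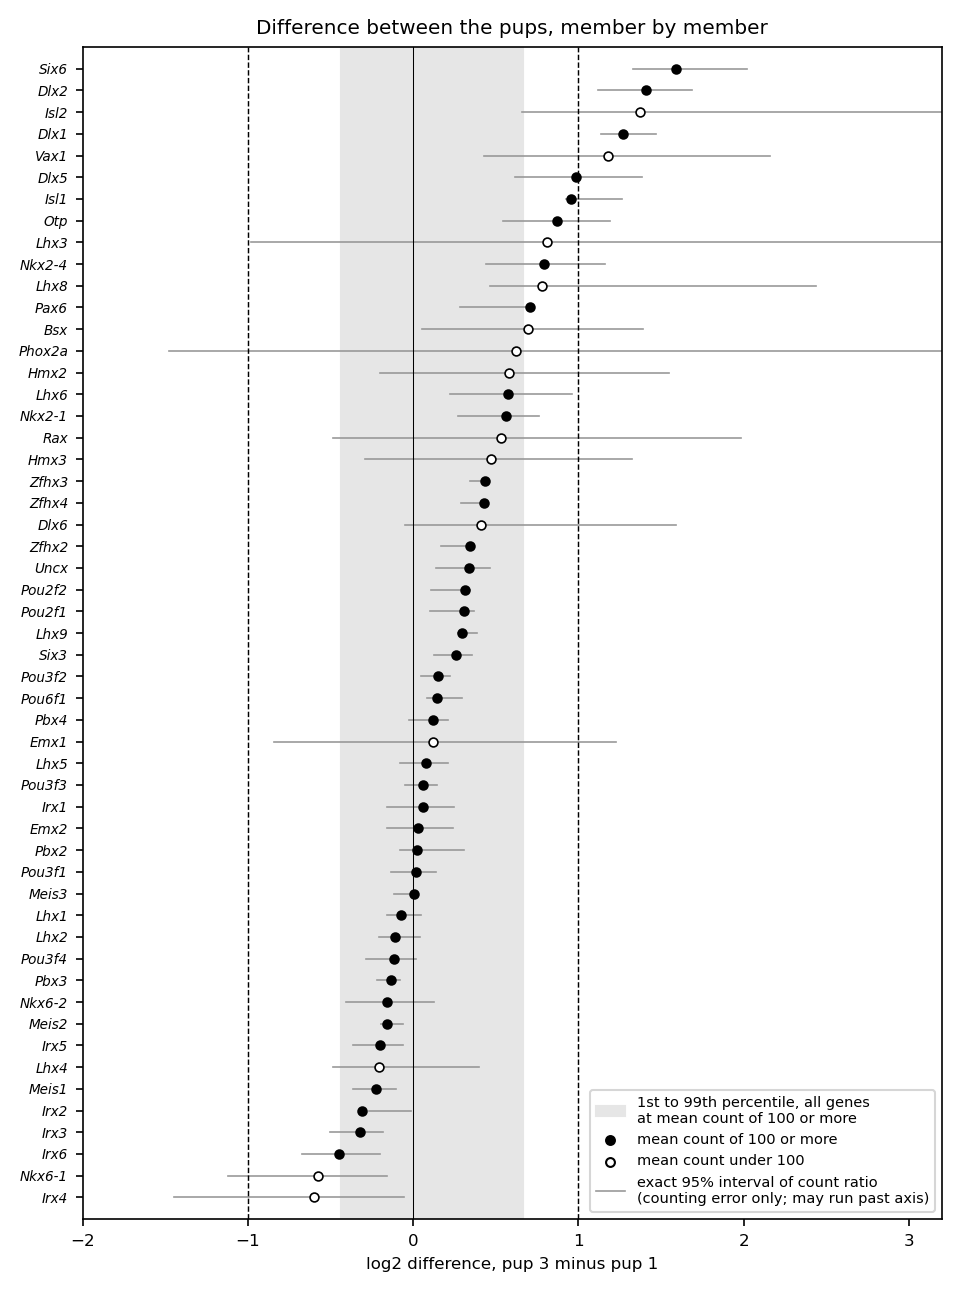
Difference between the pups (log2, pup 3 minus pup 1) for the members, with the exact 95% counting interval of the count ratio as bars and a dashed line at 1 and at -1. Among filled points, of a mean count of 100 or more, Six6, Dlx2 and Dlx1 lie past the line at 1 and none past the line at -1. Open points have fewer counts.

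At a smaller difference of 0.5, 10 of the 39 members were higher in pup 3 (25.6%, against 2.52% of all genes tested), and none was lower by that much (0.661% of all genes). They were Six6, Dlx2, Dlx1, Dlx5, Isl1, Otp at 0.87, Nkx2-4 at 0.79, Pax6 at 0.70, Lhx6 at 0.57 and Nkx2-1 at 0.56. Of these, Six6 and Dlx5 had 92 and 85 counts in pup 1 and met the count limit only through pup 3. Pax6 was under 0.5 when counts were scaled by edgeR's TMM (0.48), and over the scalings and pseudocounts tried 8 to 10 members were above 0.5. The median difference was 0.15 over the members and 0.02 over all genes tested. Higher in pup 3 by any amount were 28 of the 39 (71.8%), against 54.8% of all genes tested.

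Genes of the same pathways were read beside the members, in lists that were also chosen with earlier results of these data known. Of 13 cofactors that LIM and TALE proteins use, all 13 were at 1 TPM or more and none was past the rule, with a median difference of 0.00. Ssbp2, an Ldb-associated protein, had 124 TPM in pup 3 and 128 TPM in pup 1, Lmo3 had 126 TPM in pup 3 and 125 TPM in pup 1, and Ssbp3 had 107 TPM in pup 3 and 94.0 TPM in pup 1. The rule called so few of all genes tested (0.218% higher) that 0 of 13 does not set the cofactors apart.

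Another 36 homeobox genes gave 21 at the count limit and 0 past the rule, with a median of 0.08. Cux1 led them with 82.7 TPM in pup 3 and 75.0 TPM in pup 1, then Otx2, a midbrain and forebrain determinant, with 51.2 TPM in pup 3 and 50.3 TPM in pup 1, and Shox2 with 45.9 TPM in pup 3 and 51.2 TPM in pup 1.

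Dlx genes act upstream of GABAergic genes in the forebrain. Of 10 GABAergic genes, 4 were higher in pup 3 and none was past the rule, with a median of -0.04. Gad1, a GABA-synthesizing enzyme, had 135 TPM in pup 3 and 145 TPM in pup 1, and Gata3, a midbrain GABAergic factor, had 75.6 TPM in pup 3 and 80.6 TPM in pup 1. Of 6 motor neuron genes, which include targets of Isl1 and Lhx3, 2 were higher in pup 3 and 3 reached the count limit, all 3 of them lower in pup 3. Prph had 5.87 TPM in pup 3 and 6.49 TPM in pup 1, Slc18a3 had 3.35 TPM in pup 3 and 4.67 TPM in pup 1, and Slc5a7 had 1.74 TPM in pup 3 and 1.90 TPM in pup 1. Their differences were -0.14, -0.47 and -0.12 (log2), in that order, against 0.96 for Isl1. In counts, Prph had 249 in pup 3 and 251 in pup 1, and Slc5a7 had 223 in each. No direction opposite to Isl1 is read from them.

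**Figure D3:**
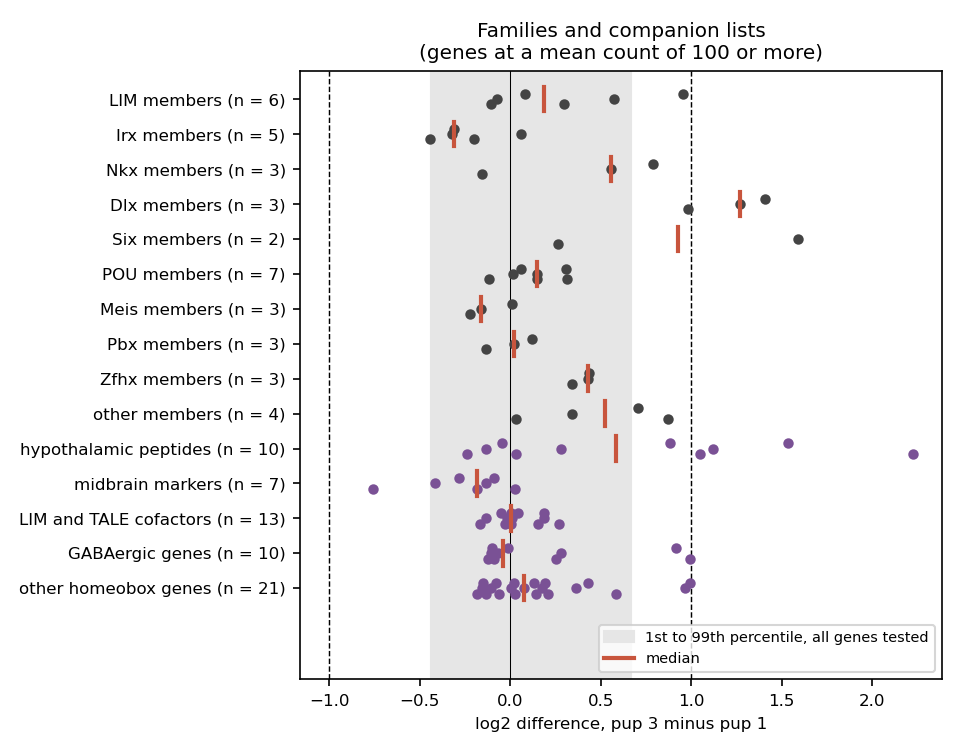
Differences between the pups (log2, pup 3 minus pup 1) for genes with a mean count of 100 or more, by member family (dark points) and companion list (purple points), with the median of each as a bar and the range from the 1st to the 99th percentile of all genes tested shaded (-0.44 to 0.67). Dlx members and some hypothalamic peptides lie to the right of the shading, and cofactors lie within it.

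Markers of neighbouring tissue differed between the pups along with the members. All 8 hypothalamus markers were higher in pup 3, with a summed 399 TPM against 183 TPM in pup 1, and none was at 0, while 54.8% of all genes tested were higher in pup 3. All 8 are also in a wider list of hypothalamic peptides, of which 16 of 17 were matched and 12 were higher in pup 3, with a summed 1099.5 TPM against 935.2 TPM in pup 1. The 4 lower ones were Crh at -0.75, Cartpt at -0.24, Sst at -0.14 and Gal at -0.04. Of the matched peptides, 10 reached the count limit, of which 4 were past the rule, against 0.218% of all genes tested. Those were Oxt at 2.23, Hcrt at 1.53, Avp at 1.12 and Pmch at 1.05. Avp, the vasopressin gene, had 270 TPM in pup 3 and 124 TPM in pup 1, and Pmch, of melanin-concentrating hormone, had 58.7 TPM in pup 3 and 28.4 TPM in pup 1. Oxt had 226 counts in pup 3, against 43.4 in pup 1, and Hcrt had 176 in pup 3, against 55 in pup 1. Oxt and Hcrt thus met the count limit only through pup 3. The highest peptide genes made in many brain regions did not differ in this way, with Sst at 533 TPM in pup 3 and 585 TPM in pup 1 and Npy at 113 TPM in pup 3 and 111 TPM in pup 1.

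Midbrain markers went the other way, with 1 of 8 higher in pup 3 and a summed 179 TPM against 202 TPM in pup 1. Th, of dopamine synthesis, had 22.3 TPM in pup 3 and 29.8 TPM in pup 1, and the dopamine transporter gene Slc6a3 was lowest at -0.76. None of the 8 was past the rule. Of 5 cortex markers, 4 were higher in pup 3, with a summed 10.9 TPM against 9.93 TPM in pup 1, of which Neurod6 made up 8.55 TPM in pup 3 and 8.73 TPM in pup 1. The 3 cerebellum markers summed to 49.0 TPM in pup 3 and 44.1 TPM in pup 1, mostly Barhl1 with 31.6 TPM in pup 3 and 31.5 TPM in pup 1, and Atoh1 had 0 counts in pup 3 and 1 in pup 1. Choroid plexus markers summed to 8.77 TPM in pup 3 and 4.89 TPM in pup 1, with 1 of 3 higher in pup 3: Ttr had 146 counts in pup 3 and 22 in pup 1, Folr1 had 64 in pup 3 and 57 in pup 1 (3.28 and 3.63 TPM), and Kl had 42 in pup 3 and 47 in pup 1. Pituitary markers summed to 0.40 TPM in pup 3 and 0.41 TPM in pup 1, retina markers to 0.32 TPM in pup 3 and 0.11 TPM in pup 1, and 3 of 4 Hox genes of the hindbrain and spinal cord were at 0 in both, which allows up to 3 counts per library. The part of the hypothalamus markers and of the X- and Y-linked difference in the members' differences was not tested.

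Within each library, 27 pairs of related members were compared by the log2 ratio of their TPM plus 0.1. A pair was called apart where the sign was the same in both pups, the mean ratio was larger than both 1 and 3 SD in size, and the genes' deposited credibility intervals were separate in each pup. By this rule 18 pairs were apart and 9 were not. The widest was Isl1 over Isl2, at 5.64 in pup 3 and 6.06 in pup 1 (mean 5.85 ± 0.29), with 15 Isl2 counts in pup 3 and 2 in pup 1. With so few counts its size depends on the value added, and it was 3.80 with 1 TPM added and 6.55 with 0.01 TPM. Emx2 stood over Emx1 by 3.87 ± 0.06 and Irx1 over Irx4 by 3.21 ± 0.46. Dlx5 stood over Dlx6 by 2.16 ± 0.41 and Dlx1 over Dlx2 by 1.66 ± 0.10. For Dlx1 and Dlx2 the order turned over complete coding transcripts, where Dlx1 had 3.66 TPM in pup 3 and 1.38 TPM in pup 1 and Dlx2 had 6.70 TPM in pup 3 and 2.52 TPM in pup 1.

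Six3 over Six6 was apart, but by unequal amounts, 2.83 in pup 3 and 4.16 in pup 1. By contrast, Pou2f1 over Pou2f2 was nearly equal in the pups, at -0.72 in each, and Zfhx3 over Zfhx4 at 0.70 in each. Neither passed the size of 1. Lhx2 stood below Lhx9 by -1.58 ± 0.28, Nkx6-1 below Nkx6-2 by -1.99 ± 0.29, Irx1 below Irx2 by -1.51 ± 0.26 and Meis1 below Meis3 by -2.57 ± 0.16. The Pbx2 to Pbx4 ratio of -3.29 ± 0.07 counts all Pbx4 transcripts, and over complete coding transcripts it turned to 1.30. Not apart were Irx3 and Irx5, at -0.28 ± 0.09, Hmx3 and Hmx2, at 0.26 ± 0.08, and Pou3f3 and Pou3f4, at -0.02 ± 0.13. The call for Lhx4 over Lhx3, at 2.64 ± 0.72, rests on 5 Lhx3 counts in pup 3 and 1 in pup 1.

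**Figure D4:**
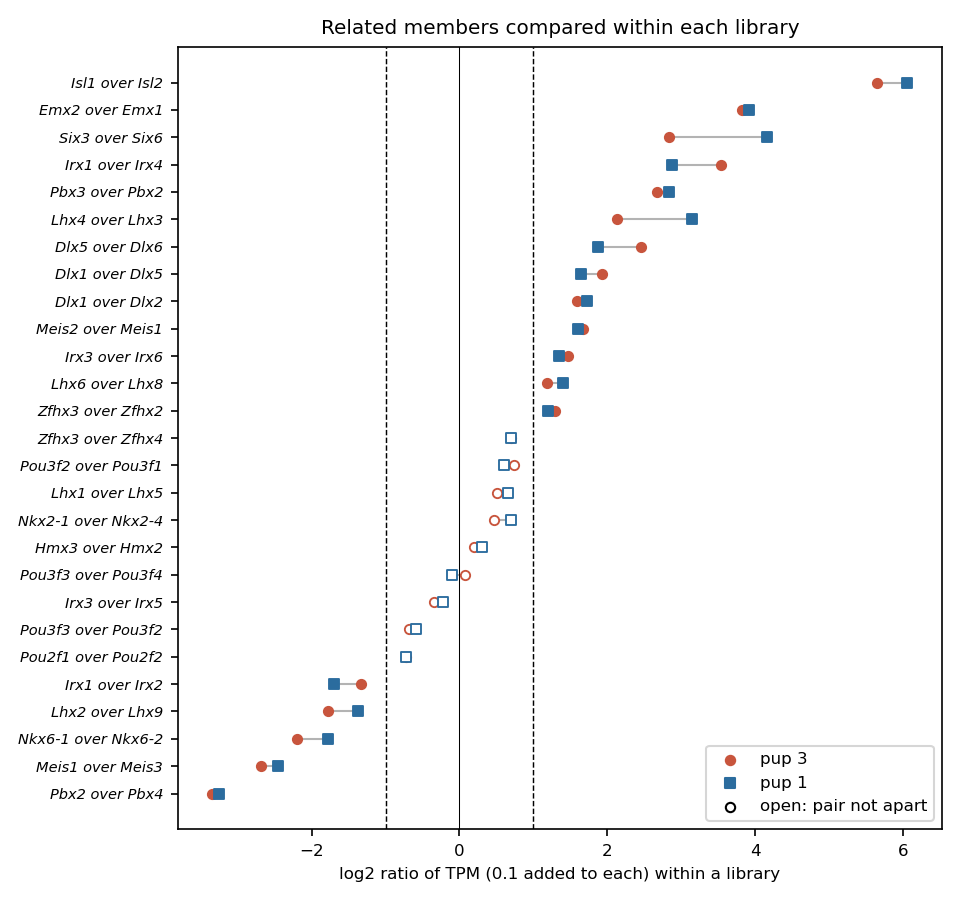
Log2 ratio of TPM plus 0.1 for the 27 pairs, with pup 3 and pup 1 as separate points. Filled pairs were called apart, 13 with the first gene higher and 5 with the second, and the points of the pups lie farthest apart for Six3 over Six6.

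Across the 31 members at 1 TPM or more on average with several transcripts in the table, the leading transcript was the same in both pups for 24. It held over 50% of the gene's TPM in 20, and in 24 it was annotated as complete coding. In Dlx2 it held 94.4% ± 1.59, in Irx3 95.7% ± 0.332 and in Otp 98.8% ± 1.69, so the TPM of these genes is that of 1 transcript. Emx2 is of the opposite kind, with 66.9% ± 1.77 in an incomplete model. Uncx had 54.1% ± 4.25 in a transcript that is not in the later annotation used for types.

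**Figure D5:**
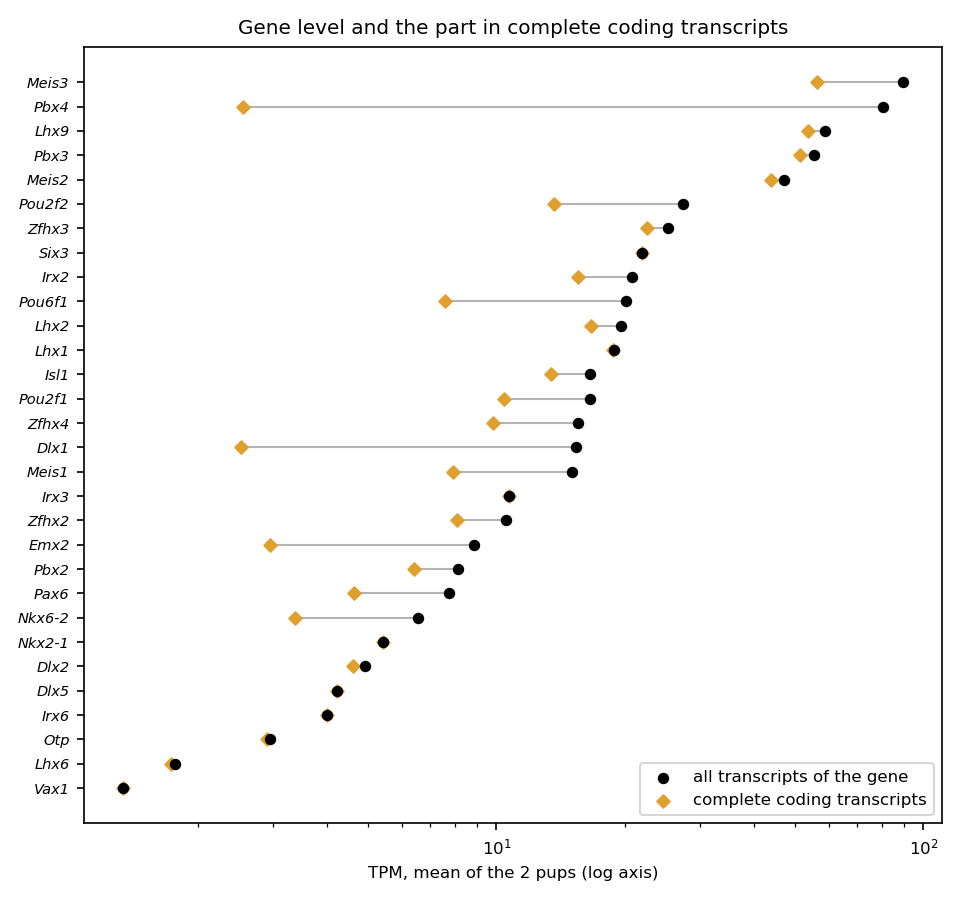
TPM over complete coding transcripts only (diamonds) and over all transcripts (circles), mean of 2 pups on a log axis, for members averaging 1 TPM or more with several transcripts, Uncx left out. Pbx4 is at 2.55 TPM by complete coding transcripts and 80.6 TPM by all, Dlx1 at 2.52 and 15.4 TPM, and Meis3 has the highest mean by both.

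An opposite-strand gene overlaps 26 of the members, and in 16 that gene has a mean count of 10 or more. Among those past the fold rule, Six6 overlaps 4930447C04Rik, which had 250 counts in pup 3, against 163 in pup 1. Dlx1 overlaps Dlx1as. Of 10 noncoding partners in a list, 8 were matched, 5 reached the count limit and none of those was past the rule. Lhx1os was highest with 104 TPM in pup 3 and 123 TPM in pup 1, followed by Pantr1, next to Pou3f3, with 98.2 TPM in pup 3 and 111 TPM in pup 1. Their own genes, Lhx1 and Pou3f3, differed by -0.08 and 0.06.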

How the data were processed

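Total RNA of 2 P0 midbrains, 1 library each, was compared. Reads were aligned to the transcriptome (mm10, GENCODE M4), per the text file deposited beside each table. The quantification program and the strand setting are not given in the sources used. The authors deposited expected counts (estimated reads per gene or transcript), TPM (scaled to a fixed sum over all features after division by effective length) and each transcript's percent of its gene. They also deposited, as a signal, lower and upper credibility bounds of posterior mean TPM, at a level not stated.

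From these, symbols, types and coordinates were taken from GENCODE M21, of the same build, by Ensembl identifier, and promoters from RefSeq GRCm38.p6. A symbol was found for 42462 of 43346 Ensembl genes (98.0%); 42 members had whole counts in both pups (within 0.005) and 11 did not, where reads were shared. The difference between the pups was log2 of TPM plus 0.1, pup 3 minus pup 1, with a fold rule of 1 read where the mean count reached 100. Adding 0.1 understates the fold of low genes. The members and lists were chosen with earlier results of these data known. The labels say that each library is from a separate pup; an exact sign-flip test over 2 animals cannot go below 0.5, so no p is given. Exact binomial intervals are at 95% and cover counting error only. Values are printed for members that average at least 1 TPM, members past the rule, the extremes of each family, and the 3 highest genes of each companion list of pathway genes with those past the rule. Kiss1, 2610017I09Rik and Pou6f1os were not matched. Some genes of the companion lists are counted but not reported here by name.

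Alternatives were other pseudocounts, count limits, posterior means, rescaling over nuclear genes, and counts scaled by edgeR 4.0.16 (TMM), DESeq2 1.42.0 (size factors) or their sum, after rounding expected counts to whole numbers. The code of the fold rule was checked on simulated counts, which says nothing about the pups. Other tools were Python 3.11.15, R 4.3.3, SciPy 1.17.1, matplotlib 3.10.9, pandas 2.3.3 and numpy 2.4.6.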

Additional observations from a re-analysis of the deposited data

How the results depend on the processing

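The fold rule called 3 members higher in pup 3, and 2 with 100 counts required in each pup. It called 5 with no filter on counts, which adds Isl2 and Vax1, and 0 with a count limit of 1000, where fewer genes are tested. A limit of 10 counts added Vax1, a pseudocount of 0.01 TPM added Dlx5, and the scalings by TMM, size factors and summed counts added Isl1. No member was lower past the rule under any of these. The median of all genes tested moved from 0.02 to -0.01 with TMM. The sign of the difference flipped for Meis3 and Pou3f1 under the 3 count scalings and for Pbx2 with posterior means, all 3 being near 0. Members at 1 TPM in both pups were 41, and 43 with pup 1 or 41 with pup 3 left out; leaving out a pup gave 19 to 20 leading transcripts over 50%. Of the 27 pairs, 18 were apart, and 22 by counts not divided by length, where Six3 over Six6 was no longer apart and 5 others were. A pseudocount of 1 TPM ended the calls of Lhx6 over Lhx8 and Lhx4 over Lhx3, and 0.01 TPM that of Lhx4 over Lhx3. Over complete coding transcripts only, an alternative chosen after seeing the data and read without the credibility intervals, 17 pairs were apart, and Dlx1 over Dlx2 (-0.84), Dlx1 over Dlx5 (-0.79) and Pbx2 over Pbx4 (1.30) turned. No paired analysis was possible because there is 1 group. The 14 members under the count limit, down to 1 count in pup 1, are too shallow for a statement on their difference, and with 1 library a pup, spread among animals of one kind is unknown.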
